A study of Drosophila melanogaster with 14 samples.

Results

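The genes described here are 131 of the 16727 genes counted in cultured ovarian somatic cells of Drosophila melanogaster. They were already expressed in control cells and were higher in every library in which L(3)mbt, Lint-1 or Lint-O had been depleted. The members were selected on measured values. A gene had to reach 1 CPM (counts per 1000000 reads on genes) in both control libraries, and all 6 knockdown libraries had to reach at least 2 times the control mean. Of 7102 genes at 1 CPM or more in both controls, 146 met these thresholds. The rule then set aside 19 named genes, germline genes such as vas, aub and AGO3 among them, of which 15 met the thresholds. The elevation over control is therefore how the genes were chosen, and is given below as a description.

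Ovarian somatic cells (OSCs) are a cultured line of follicle cell type, grown without germ cells. All 4 groups were such cells taken 48 hours after RNAi, with 2 RNA-seq libraries each. RNAi was directed against EGFP (a fluorescent protein that flies do not encode, used as the control), l(3)mbt, Lint-1 or the gene of Lint-O, listed as CG2662. The groups are called EGFP KD, L(3)mbt KD, Lint-1 KD and Lint-O KD. The labels name no mutation for any group, and all 4 had been treated with RNAi. Separate cultures are not stated for the 2 libraries of a group, and p-values therefore cover the variation between libraries, which may be technical.

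L(3)mbt is a chromatin protein with MBT repeats that keeps genes of the germline programme silent in somatic cells of the fly. It acts in the LINT complex, with Lint-1 and the corepressor CoREST, and has been found with the dREAM complex of E2F and retinoblastoma family proteins. Loss of L(3)mbt in the larval brain gives tumours that express germline genes.

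Each library held between 18293791 and 20978039 reads on genes. The follicle cell marker tj, a transcription factor of somatic gonad cells, stood at 201 to 357 CPM in all 8 libraries. Other follicle cell markers ranged widely over these libraries. Levels of fax, N, shg, mirr, Fas3, br, eya and EcR were 5.66 to 294 CPM, and those of pnt and Yp3 were 0.307 to 8.66 CPM. The markers cas and slbo stood at only 0.298 to 1.64 CPM, and Sox100B, bi, Yp1, Yp2, psd and Vm26Aa at 0 to 0.596 CPM. Germline markers were not uniformly absent. In the controls otu, zpg and stil were listed at 0, osk, nos, tej and BigH1 stood at 0 to 0.102 CPM, vas, bgcn, aub and AGO3 at 1.23 to 2.97 CPM, and bam and pgc at 7.59 to 21.8 CPM. Of 13 germline markers tested, 8 were called higher in each knockdown, as given further on. Each RNAi target was lower in its own knockdown. The l(3)mbt level was 180.5 and 183 CPM in the controls and 108 and 94.4 CPM in L(3)mbt KD. Lint-1 went from 55.5 and 50.4 CPM to 10.1 and 12.4 CPM, and CG2662 from 19.2 and 17.8 CPM to 1.09 and 2.02 CPM. The l(3)mbt RNA was thus the least depleted of the 3 targets relative to its control level.

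The members were weakly expressed genes. Their control means ran from 1.07 to 58.8 CPM with a median of 3.46 CPM, whereas the median over all 7102 expressed genes was 43.0 CPM. Of the 131 members, 84 had a control mean under 5 CPM and 7 had one of at least 20 CPM. Even the lowest count of a member in a control library was 19 reads, and all 131 passed the low-count filter of the test. By annotation 127 were protein-coding, 2 were long non-coding RNAs and 1 was a pseudogene, while Dat was not matched. In 64 of them the current symbol is still a numbered CG or CR designation, which marks genes without a given name.

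Taken as a sum, the members held 852 and 843 CPM in the control libraries. The sum was 4136 and 4349 CPM in L(3)mbt KD, 3843 and 3921 CPM in Lint-1 KD, and 3079 and 3282 CPM in Lint-O KD. The Lint-O KD libraries had the lowest sums of the 6 knockdown libraries. In bulk RNA, more cells expressing a gene and more RNA per cell cannot be told apart. The median member stood at 4.35 times control in L(3)mbt KD, with a range of 2.33 to 34.8. In Lint-1 KD it stood at 4.02 times (2.12 to 29.2), and in Lint-O KD at 3.52 times (2.16 to 18.7). By the lowest of its 6 knockdown libraries, the median member reached 2.93 times control. On that measure 64 members reached 3 times, 37 reached 4 times and 26 reached 5 times.

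**Figure D1:**
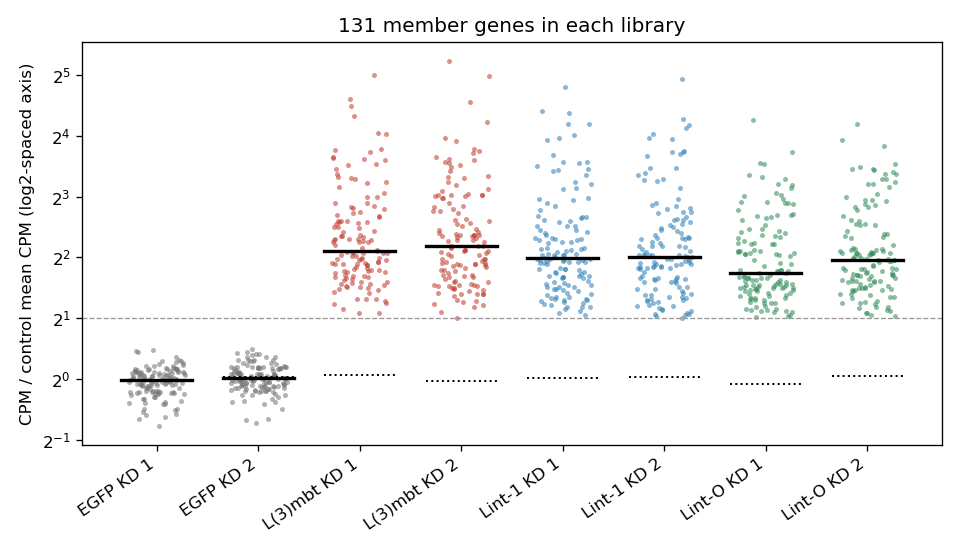
Each point is 1 of the 131 members in 1 library, as its CPM over the mean CPM of the 2 control libraries on a log2-spaced axis. Solid bars are member medians, dotted bars are medians of all expressed genes and the dashed line marks 2-fold. Member medians were 4.28 and 4.54 in L(3)mbt KD, 3.99 and 4.04 in Lint-1 KD, and 3.34 and 3.90 in Lint-O KD. The floor at 2-fold is set by the selection.

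The median of all expressed genes stayed between 0.948 and 1.05 times control in the 6 knockdown libraries. Between 2.72% and 5.10% of expressed genes reached 2-fold in a given library. In edgeR's quasi-likelihood test against EGFP KD, all 131 members passed an adjusted p of 0.05 in L(3)mbt KD, where 9.58% of the 8244 tested genes were called higher. In Lint-1 KD 123 members passed, against 8.41% of tested genes, and in Lint-O KD 123 passed, against 5.20%. Since the selection used these contrasts, nothing follows from the counts. In all 3 knockdowns 119 members passed, as did 364 of all tested genes. The members that missed the threshold in a knockdown were 12 genes: CR43765, CG11739, Oseg4 and CG7860 missed it in both Lint-1 KD and Lint-O KD. CG14615, CG43293, CG8568 and CG17322 missed it in Lint-1 KD, and Sclp, Dat, rut and CR42875 in Lint-O KD.

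By its lowest knockdown library, the gene farthest above its control level was CG5080 (2L:1160290-1163886; all positions are whole-gene spans in dm6). It had 3.15 and 4.30 CPM in the controls, 90.8 and 118 CPM in L(3)mbt KD, 104 and 114 CPM in Lint-1 KD, and 71.4 and 67.8 CPM in Lint-O KD. Both Lint-O KD libraries lay below the other 4 knockdown libraries, and even the lowest stood at 18.2 times control. CG17207 (3R:12437817-12439139) had 1.44 and 1.02 CPM in the controls. It had 15.5 and 18.6 CPM in L(3)mbt KD, 19.2 and 19.3 CPM in Lint-1 KD, and 16.4 and 17.6 CPM in Lint-O KD. Its 6 knockdown values lay close together, with the Lint-O KD values inside the range of L(3)mbt KD, and its span overlaps Desat2 and CG46427.

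CG32436 (3L:21344033-21355049), which overlaps ebd2, had 4.65 and 5.12 CPM in the controls, 80.4 and 52.1 in L(3)mbt KD, 89.2 and 65.3 in Lint-1 KD, and 57.1 and 74.1 in Lint-O KD. The ranges of the 3 knockdowns overlapped. CG10859 (2L:13396392-13398664) had 4.70 and 5.07 CPM in the controls, 66.1 and 65.6 in L(3)mbt KD, 57.7 and 54.0 in Lint-1 KD, and 50.02 and 53.4 in Lint-O KD. Here the 3 knockdowns fell in that order without overlap. CG6652 (3L:17020348-17022856) had 1.87 and 2.25 CPM in the controls, 21.4 and 23.7 in L(3)mbt KD, 22.4 and 26.2 in Lint-1 KD, and 20.5 and 20.2 in Lint-O KD. Its knockdown values spanned a narrow range, with Lint-O KD lowest.

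CG14964, now named MnM (3L:3172817-3178580), had 6.25 and 6.46 CPM in the controls, 104 and 74.1 in L(3)mbt KD, 103 and 97.5 in Lint-1 KD, and 58.4 and 68.8 in Lint-O KD. Both Lint-O KD values were under all 4 others. CG43163 (3L:8472807-8507146) had 1.60 and 2.10 CPM in the controls, 16.5 and 18.8 in L(3)mbt KD, 16.3 and 19.3 in Lint-1 KD, and 16.2 and 14.8 in Lint-O KD. Its values in the 3 knockdowns lay within a few CPM of each other. The other 3 of the 10 genes with the highest lowest-library fold were CG32368, CycJ and ChLD3, and those 3 differed between knockdowns, as described further on.

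**Figure D2:**
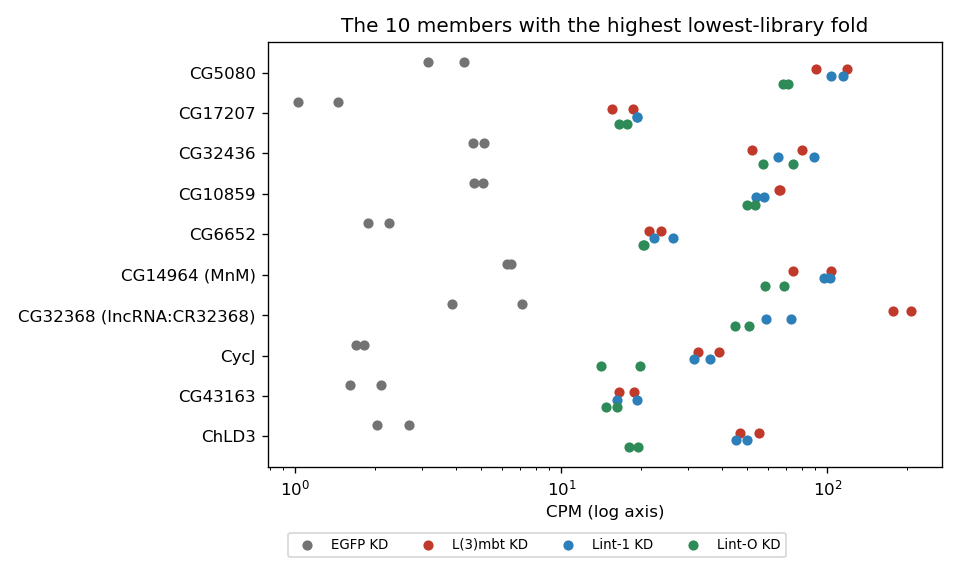
CPM on a log axis for the 10 members whose lowest knockdown library stood highest over the control mean, with 1 point per library and 2 libraries per group. All 6 knockdown values lie to the right of both control values for each gene, which the selection requires. For CG5080 the knockdown values run from 67.8 to 118 CPM, and for CG32368 the 2 L(3)mbt KD values of 176 and 207 CPM stand apart from the other knockdowns.

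By known roles, 58 members could be placed in 12 groups and 73 could not. The groups were drawn by role and not by value. Of genes acting in egg formation and embryo patterning there were 4. Their control levels ran from 1.75 to 29.2 CPM, and their folds over control from 3.55 to 20.5 in L(3)mbt KD, 3.88 to 19.4 in Lint-1 KD and 2.69 to 9.64 in Lint-O KD. The gene grk encodes Gurken, the TGF-alpha type ligand that the oocyte sends to follicle cells to set both body axes. It had 2.08 and 3.43 CPM in the controls, 11.3 and 8.31 in L(3)mbt KD, 11.5 and 9.86 in Lint-1 KD, and 9.19 and 9.70 in Lint-O KD. L(3)mbt KD overlapped with both other knockdowns. Its span overlaps Akap200.

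The eggshell gene fs(1)N encodes Nasrat, a protein needed for the eggshell and for Torso signalling at the embryo's ends. It had 9.83 and 10.4 CPM in the controls, 49.8 and 43.6 in L(3)mbt KD, 63.7 and 63.6 in Lint-1 KD, and 30.4 and 36.0 in Lint-O KD. The 3 knockdowns did not overlap, with Lint-1 KD highest and Lint-O KD lowest. The gene ea encodes Easter, the protease that cleaves the Toll ligand in the early embryo. It had 29.0 and 29.5 CPM in the controls, 109 and 120.4 in L(3)mbt KD, 109 and 128 in Lint-1 KD, and 79.5 and 77.5 in Lint-O KD. L(3)mbt KD and Lint-1 KD overlapped, and both Lint-O KD values were lower.

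Further members are paralogs or partners of genes used in the germline or testis. The 5 genes placed there had control means of 3.18 to 7.86 CPM. Prosbeta2R2, a testis paralog of a proteasome subunit, had 8.44 and 7.28 CPM in the controls, 40.1 and 52.4 in L(3)mbt KD, 41.5 and 42.6 in Lint-1 KD, and 43.5 and 34.6 in Lint-O KD. The 3 knockdowns overlapped at about the same level. Trf4-2, a non-canonical poly(A) polymerase, had 2.72 and 3.64 CPM in the controls and 13.9 to 15.9 CPM over the 6 knockdown libraries. Of this group, skpB, a paralog of the SCF ligase subunit SkpA, had 18.5 and 19.7 CPM in L(3)mbt KD, above its 14.03 to 15.6 CPM in the other 4 knockdown libraries and 2.83 and 4.51 CPM in the controls. CG2678 is kipf, whose protein Kipferl guides the piRNA cluster protein Rhino to its binding sites in ovarian germ cells. It had 3.26 and 3.95 CPM in the controls and 9.78 to 12.7 CPM over the 6 knockdown libraries, with those extremes both in L(3)mbt KD. HP1D3csd, related to the Rhino gene, had 8.49 and 6.97 CPM in the controls and 18.4 to 21.97 CPM over the 6 knockdown libraries.

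Another 6 members act in the sensing of foreign nucleic acids or in immunity. CG1667 is Sting, the receptor for cyclic dinucleotides in antiviral defence. It had 16.8 and 15.9 CPM in the controls, 80.7 and 52.6 in L(3)mbt KD, 47.7 and 40.2 in Lint-1 KD, and 40.1 and 50.1 in Lint-O KD. Both L(3)mbt KD values were above the other 4, which overlapped. Its span overlaps Orc6. CG30424 is cGlr2, a cGAS-like receptor that makes cyclic dinucleotides. It had 6.04 and 4.97 CPM in the controls, 15.9 and 14.5 in L(3)mbt KD, 12.5 and 11.2 in Lint-1 KD, and 16.0 and 21.9 in Lint-O KD, so that Lint-O KD was highest and Lint-1 KD lowest.

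Nazo (CG11671), an antiviral effector downstream of Sting in the fly, had 5.56 and 4.30 CPM in the controls, 46.4 and 55.3 in L(3)mbt KD, 21.5 and 27.8 in Lint-1 KD, and 26.7 and 28.6 in Lint-O KD. The L(3)mbt KD values stood above the other 4. The gene pst (pastrel), known for natural variation in resistance to picorna-like viruses, had 62.9 and 54.6 CPM in the controls, 211 and 244 in L(3)mbt KD, 189 and 198 in Lint-1 KD, and 129.96 and 128 in Lint-O KD. Its 3 knockdowns did not overlap, with Lint-O KD lowest. GNBP3 recognises fungal glucan upstream of Toll. It had 48.1 and 46.6 CPM in the controls, 141 and 137 in L(3)mbt KD, 157 and 176 in Lint-1 KD, and 103 and 107 in Lint-O KD, again without overlap. PPO3, a prophenoloxidase of lamellocytes, had 10.7 and 11.7 CPM in the controls, 32.1 to 37.6 CPM in L(3)mbt KD and Lint-1 KD, and 48.5 and 48.3 CPM in Lint-O KD, where it was highest.

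The 13 members of signalling and adhesion had control means of 1.23 to 15.9 CPM. They include the receptor tyrosine kinase gene Ror, the adenylyl cyclase rut, the G protein subunit Gbeta5, the metalloprotease Kul, the planar polarity gene dgo, and the growth factor of midkine type miple. Gbeta5 had 4.38 and 6.10 CPM in the controls, 39.0 and 41.3 in L(3)mbt KD, 40.8 and 46.4 in Lint-1 KD, and 24.5 and 21.4 in Lint-O KD. Pask, the PAS domain kinase, had 1.01 and 2.46 CPM in the controls, 23.1 and 21.7 in L(3)mbt KD, 11.0 and 8.68 in Lint-1 KD, and 11.4 and 16.0 in Lint-O KD. Gbeta5 was thus lowest in Lint-O KD, and Pask highest in L(3)mbt KD, each without overlap. Scgalpha, the sarcoglycan alpha of the dystrophin complex, had 3.15 and 2.97 CPM in the controls, 14.5 and 17.4 in L(3)mbt KD, 15.2 and 13.2 in Lint-1 KD, and 19.6 and 21.7 in Lint-O KD, where it was highest. Tig, the extracellular integrin ligand Tiggrin, had 1.18 and 1.54 CPM in the controls and was highest in L(3)mbt KD, at 16.4 and 12.9 CPM, against 5.81 to 10.1 CPM in the other knockdowns. The remaining signalling members, dpr19, mthl14, RhoGAP102A and CG17278 (peg), had folds over control between 2.47 and 8.49 in the 3 knockdowns.

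Enzymes of metabolism and detoxification made up another 12 members. Among the metabolic 6 were amd and b of amine and beta-alanine metabolism, CG7433 (Gabat, which breaks down GABA), the peroxisomal acyl-CoA oxidase Acox57D-p, CG4753 (Agpat4) and the lipocalin GLaz. CG4753 had 2.30 and 2.56 CPM in the controls, 14.4 and 19.0 in L(3)mbt KD, 22.9 and 23.7 in Lint-1 KD, and 15.2 and 14.3 in Lint-O KD. Its Lint-1 KD values were above the other 4. The detoxification 6 were the cytochrome P450 genes Cyp9f2 and Cyp6d4, the glycosyltransferases CG4302 (Ugt49B1) and CG17322 (Ugt36E1), GstO3 and the sulfotransferase St3. Cyp9f2 had 5.13 and 5.43 CPM in the controls, 28.6 and 29.3 in L(3)mbt KD, 14.8 and 15.9 in Lint-1 KD, and 24.7 and 22.1 in Lint-O KD. Cyp6d4 had 2.51 and 1.79 CPM in the controls, 9.02 and 8.005 in L(3)mbt KD, 4.67 and 4.45 in Lint-1 KD, and 6.16 and 7.09 in Lint-O KD. Both P450 genes stood lowest in Lint-1 KD, with no overlap between the knockdowns. GstO3, an omega class glutathione transferase, had 38.6 and 33.6 CPM in the controls and 159 to 177 CPM over the 6 knockdown libraries, nearly level across them.

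The 2 chitin genes were the chitinase Cht2 and the chitin deacetylase-like ChLD3. Cht2 had 13.1 and 12.5 CPM in the controls and 73.0 to 103 CPM over the 6 knockdown libraries, which overlapped. Among transporters and lysosomal genes were the sugar transporter sut1, the oligopeptide transporter yin, CG42575 (NaPi-III), CG8596 (Cln7), CG13397 (Naglu) and the sideroflexin CG11739 (Sfxn1-3). The sut1 level was 2.83 and 2.87 CPM in the controls, 13.8 and 14.5 in L(3)mbt KD, 20.5 and 22.3 in Lint-1 KD, and 8.79 and 12.04 in Lint-O KD, in 3 separate ranges. The peptidase Nep2, of the neprilysin family that cleaves peptide hormones, had 1.44 and 1.95 CPM in the controls and 12.8 to 22.01 CPM in the knockdowns. Acer, Ir40a and Obp83cd, placed in the same group, had folds of 2.39 to 9.71. The death-promoting Bcl-2 family gene debcl had 15.8 and 14.7 CPM in the controls and 47.7 to 58.4 CPM in the knockdowns. The 2 genes of ciliary transport, CG30441 (IFT20) and Oseg4, had folds of 2.22 to 3.62.

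**Figure D3:**
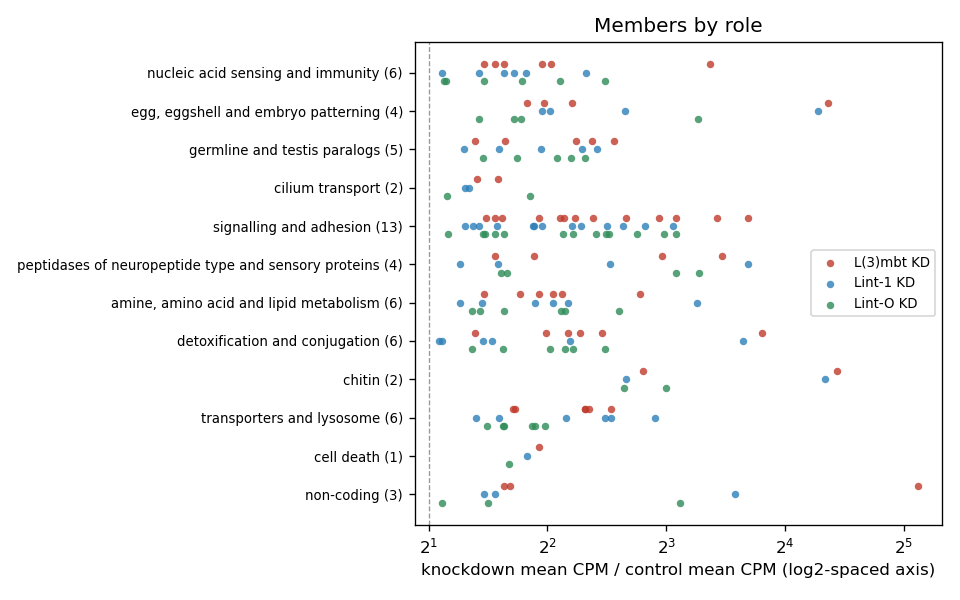
Mean CPM in each knockdown over the control mean, on a log2-spaced axis, for the 58 members placed in a role, 1 point per member and knockdown. The number of members in each role is in brackets and the dashed line marks 2-fold. The point at 34.8 is CG32368 in L(3)mbt KD.

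The selection sets each knockdown against the control and leaves the differences between knockdowns free, apart from the common floor. For 72 members the highest and lowest knockdown means were within 1.5-fold of each other, and the median ratio was 1.43. For 18 members the ratio was at least 2, for 4 at least 3, and the highest was 4.005, in CG32368. The highest mean was in L(3)mbt KD for 56 members, in Lint-1 KD for 49 and in Lint-O KD for 26. The lowest mean was in Lint-O KD for 75 members, in Lint-1 KD for 47 and in L(3)mbt KD for 9.

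Tested between knockdowns with edgeR over all 8244 genes, 9 members differed in at least 1 pair and 122 in none. All calls were against Lint-O KD. Compared with Lint-O KD, 5 members were higher in L(3)mbt KD, where 0.667% of tested genes were called higher, and 0 were lower, where 0.0364% were. At an unadjusted p under 0.05 in edgeR 37 members were higher (9.61% of tested genes) and 1 lower (5.02%). In DESeq2, with shares of the genes it gave an adjusted p, 17 were higher (2.80%) and 0 lower (0.247%). Between Lint-1 KD and Lint-O KD, 8 members were higher in Lint-1 KD, with 0.910% of tested genes called, and 0 were lower, with 0.267% called. The unadjusted counts in edgeR were 34 higher (10.1%) and 19 lower (7.51%). In DESeq2 15 were higher (2.47%) and 3 lower (1.16%), the latter being CG3556, CG15332 and Cyp9f2.

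The median member difference was 0.20 on the log2 scale for L(3)mbt KD minus Lint-O KD, with 92 of 131 members above 0, and 0.11 for Lint-1 KD minus Lint-O KD, with 78 above 0. Over all tested genes 49.8% and 49.2% were above 0. These medians have no test, because the floor of the selection bears on all 3 knockdowns. The calls rested on few libraries. Without Lint-O KD replicate 1 or replicate 2, 0 members were called in either pair. For L(3)mbt KD against Lint-O KD, 2 were called without either Lint-1 KD replicate, 1 without L(3)mbt KD replicate 2 and 9 without L(3)mbt KD replicate 1. For Lint-1 KD against Lint-O KD, 0 were called without Lint-1 KD replicate 2, 1 without Lint-1 KD replicate 1 and 14 without L(3)mbt KD replicate 1.

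CycJ, ChLD3, St3 and CG32483 were the 4 members called in both pairs. CycJ, a cyclin of the ovary and early embryo (3L:3466428-3468098, overlapping CG14971), had 1.82 and 1.69 CPM in the controls, 39.3 and 32.7 in L(3)mbt KD, 36.3 and 31.7 in Lint-1 KD, and 14.1 and 19.7 in Lint-O KD. L(3)mbt KD and Lint-1 KD overlapped, and Lint-O KD was lower in both libraries. In edgeR the log2 difference from Lint-O KD was 1.04 ± 0.185 (SE, 2 libraries a group, adjusted p = 0.0480) for L(3)mbt KD and 0.95 ± 0.184 (adjusted p = 0.0497) for Lint-1 KD.

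ChLD3 (2L:16738850-16742610, overlapping LSm7) had 2.03 and 2.66 CPM in the controls, 46.8 and 55.2 in L(3)mbt KD, 49.7 and 45.2 in Lint-1 KD, and 19.5 and 18.01 in Lint-O KD. Its log2 difference from Lint-O KD was 1.39 ± 0.182 (adjusted p = 0.0161, edgeR) in L(3)mbt KD and 1.28 ± 0.182 (adjusted p = 0.0142) in Lint-1 KD. St3 (2R:23683377-23687980, overlapping l(2)efl) had 2.62 and 3.38 CPM in the controls, 37.3 and 46.6 in L(3)mbt KD, 35.1 and 40.0 in Lint-1 KD, and 17.3 and 16.3 in Lint-O KD. Both genes followed the pattern of CycJ, with L(3)mbt KD and Lint-1 KD overlapping above Lint-O KD. The St3 differences were 1.27 ± 0.198 (adjusted p = 0.0353, edgeR) and 1.10 ± 0.198 (adjusted p = 0.0379).

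CG32483 (3L:688523-690081) had 8.39 and 5.53 CPM in the controls, 80.9 and 84.1 in L(3)mbt KD, 106 and 121 in Lint-1 KD, and 36.7 and 36.2 in Lint-O KD. The 3 knockdowns were separate, with Lint-1 KD highest. Its log2 difference from Lint-O KD was 1.12 ± 0.187 (adjusted p = 0.0380, edgeR) in L(3)mbt KD and 1.58 ± 0.189 (adjusted p = 0.00785) in Lint-1 KD.

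Called in 1 pair was CG32368, now lncRNA:CR32368 (3L:7915437-7915846). This non-coding RNA had 7.10 and 3.89 CPM in the controls, 176 and 207 in L(3)mbt KD, 58.6 and 73.0 in Lint-1 KD, and 44.9 and 50.7 in Lint-O KD. The L(3)mbt KD values were far above all others. Its log2 difference of L(3)mbt KD from Lint-O KD was 1.95 ± 0.240 (adjusted p = 0.0141, edgeR). The difference from Lint-1 KD was 1.55 on the log2 scale and missed the threshold in edgeR (adjusted p = 0.0746), but passed in DESeq2 (adjusted p = 8.37e-08).

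Asph, CG8526, fs(1)N and GNBP3 were called by edgeR only between Lint-1 KD and Lint-O KD, and were higher in Lint-1 KD. Asph, an aspartyl beta-hydroxylase (2R:16110331-16116996), had 2.56 and 2.00 CPM in the controls, 18.2 and 15.6 in L(3)mbt KD, 26.9 and 23.4 in Lint-1 KD, and 7.25 and 8.79 in Lint-O KD. CG8526 (3R:9801280-9803461) had 2.56 and 2.97 CPM in the controls, 27.0 and 33.0 in L(3)mbt KD, 50.7 and 45.0 in Lint-1 KD, and 20.4 and 21.2 in Lint-O KD. Both genes fell in the order Lint-1 KD, L(3)mbt KD, Lint-O KD without overlap. The edgeR log2 differences between Lint-1 KD and Lint-O KD were 1.59 ± 0.199 (adjusted p = 0.00852) for Asph and 1.14 ± 0.177 (adjusted p = 0.0216) for CG8526. For fs(1)N the difference was 0.88 ± 0.133 (adjusted p = 0.0191, edgeR) and for GNBP3 it was 0.61 ± 0.114 (adjusted p = 0.0448). Asph was also higher in L(3)mbt KD than in Lint-O KD, by 1.02 on the log2 scale. This missed the threshold in edgeR (adjusted p = 0.0615) but passed in DESeq2 (adjusted p = 0.00361).

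**Figure D4:**
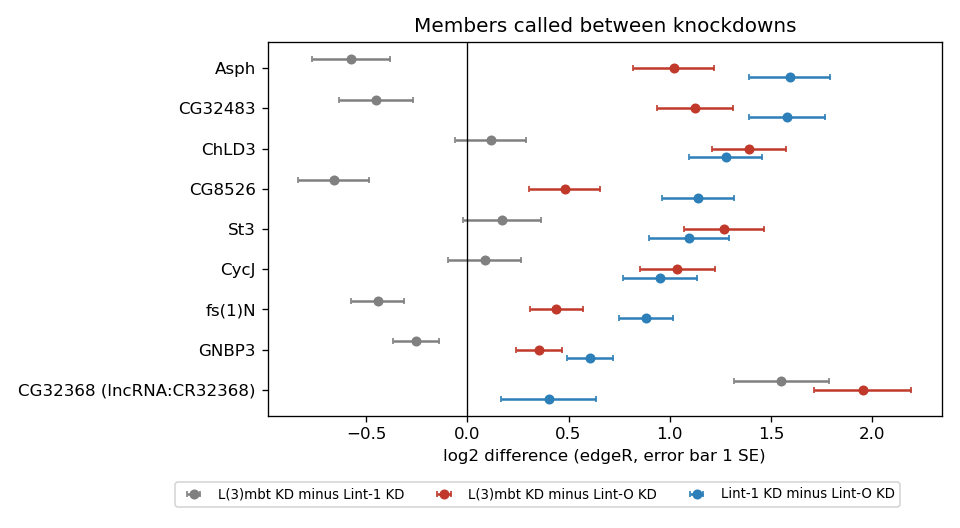
Log2 differences between knockdowns, in edgeR's fit of all 8 libraries, for the 9 members called in at least 1 pair; error bars are 1 SE and each group has 2 libraries. Differences from Lint-O KD lie to the right of 0 for all 9. L(3)mbt KD minus Lint-1 KD lies to the left of 0 for Asph, CG32483, CG8526, fs(1)N and GNBP3 and at 1.55 for CG32368, and was called for none of the 9 in edgeR.

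Between L(3)mbt KD and Lint-1 KD edgeR called 0 members in either direction, with 0.0364% of tested genes called higher and 0.0364% lower. At an unadjusted p under 0.05 in edgeR 22 members were higher in L(3)mbt KD (4.12% of tested genes) and 8 lower (2.10%). DESeq2 called 8 members higher in L(3)mbt KD (0.497% of tested genes) and 0 lower (0.146%). The 8 were CG32368, CG44532, CG3556, CG32625, Nazo, CG6999, Cyp9f2 and Pask, with edgeR adjusted p-values of 0.0746 to 0.315. CG44532 had 2.19 and 1.33 CPM in the controls, 20.1 and 24.3 in L(3)mbt KD, 5.01 and 7.18 in Lint-1 KD, and 9.09 and 12.5 in Lint-O KD. The 3 knockdowns of this gene were separate, with L(3)mbt KD highest. The median member difference was 0.11 on the log2 scale, with 81 of 131 above 0, against 49.8% of all tested genes.

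At the threshold of the selection, the 5 members with the lowest lowest-library fold were CG17322, CG8568, CR42875, RhoGAP102A and CG30424, at 2.02 to 2.04 times control. The 5 expressed genes nearest below it were CR45009, CG6762, CG3703, nvd and CG1572, at 1.96 to 1.99 times. CG3703, for example, had 17.6 and 16.8 CPM in the controls, 58.7 and 66.8 in L(3)mbt KD, 52.8 and 66.6 in Lint-1 KD, and 34.2 and 34.1 in Lint-O KD. It was outside because of Lint-O KD alone.

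The members were spread over the genome much as expressed genes are. Of 130 members with a position, 18.5% lay on 2L, 19.2% on 2R, 18.5% on 3L, 25.4% on 3R and 17.7% on X. The shares of 7023 expressed genes were 17.6%, 20.5%, 19.2%, 24.3% and 17.5%. RhoGAP102A was the 1 member on chromosome 4. The 15 genes set aside by name that met the thresholds were left out of the members but not of the expressed genes. The member shares, and the count on chromosome 4 with them, therefore depend on which genes the rule set aside. The median gene span was 2604 bases for members and 2835 bases for expressed genes, and 63.1% of members and 52.4% of expressed genes were under 3000 bases. A smaller share of members than of expressed genes overlapped another gene, 41.5% against 52.4%. These shares are descriptions and were not tested. No source used here gives the strand setting of the counting, and reads of overlapping or antisense genes may be mixed in the counts of the 54 overlapping members.

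**Figure D5:**
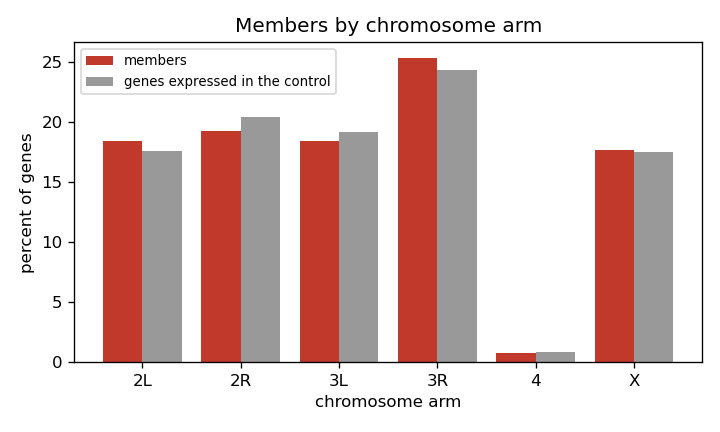
Share of genes on each chromosome arm, in percent, for the 130 members with a position in red and the 7023 genes expressed in the control with a position in grey. The bars differ by little on every arm, for example 25.4% against 24.3% on 3R. Genes that the rule set aside by name are not among the members.

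In 4 places members lay within 5000 bases of each other. CG15332 and CG15330 on X were 73 bases apart. CG15332 had 2.08 and 3.28 CPM in the controls, 19.4 and 19.4 in L(3)mbt KD, 13.2 and 11.1 in Lint-1 KD, and 21.0 and 20.5 in Lint-O KD. CG15330 had 1.28 and 1.84 CPM in the controls, 14.6 and 14.3 in L(3)mbt KD, 9.82 and 11.3 in Lint-1 KD, and 18.1 and 16.1 in Lint-O KD. These neighbours had the same order of knockdowns, with Lint-O KD highest and Lint-1 KD lowest. CG32706 and CG6999, also on X, were 293 bases apart. CG32706 had 17.5 and 13.3 CPM in the controls, 73.9 and 95.9 in L(3)mbt KD, 49.1 and 54.4 in Lint-1 KD, and 62.9 and 60.2 in Lint-O KD. CG6999 had 10.7 and 6.82 CPM in the controls, 44.6 and 87.7 in L(3)mbt KD, 23.8 and 26.9 in Lint-1 KD, and 31.8 and 36.3 in Lint-O KD. Both were highest in L(3)mbt KD and lowest in Lint-1 KD.

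CG17224 and CG17264 on 2L were 199 bases apart. CG17224 had 35.6 and 32.5 CPM in the controls, 135 and 153 in L(3)mbt KD, 130.4 and 137 in Lint-1 KD, and 74.1 and 92.5 in Lint-O KD. CG17264 had 13.2 and 13.1 CPM in the controls, 74.2 and 89.8 in L(3)mbt KD, 51.7 and 59.9 in Lint-1 KD, and 38.6 and 51.5 in Lint-O KD. Both were lowest in Lint-O KD. CG6765 and GstO3 on 3L were 146 bases apart, and CG6765 had 1.12 and 1.28 CPM in the controls and 3.13 to 6.18 CPM in the knockdowns. CG6765 overlaps Pus7 and CG6683, CG15332 overlaps Ubr3, and CG17264 overlaps alpha4GT1.

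Most tested genes flanking a member were not called. A flanking gene was the nearest gene on either side that did not overlap the member, at any distance. Genes overlapping a member were not counted as its flanking genes. Of 259 flanking positions 8 held members, and 198 tested genes at the others were neither members nor set aside. Their median log2 change against EGFP KD was -0.02 in L(3)mbt KD, -0.02 in Lint-1 KD and -0.01 in Lint-O KD. In edgeR 25 flanking genes were called higher in L(3)mbt KD, 12.6% against 7.80% of the other tested genes. In Lint-1 KD 16 were called (8.08% against 6.81%) and in Lint-O KD 12 (6.06% against 3.48%). The differences between these shares were not tested. The 8 flanking genes called higher in all 3 knockdowns were CG16957, Unc-89, MtnA, CG31436, CG18547, CG10396, CG18173 and CG9875. CG18173, next to Oseg4, had log2 changes of 4.27, 4.24 and 2.79 in L(3)mbt KD, Lint-1 KD and Lint-O KD, and CG10396, next to CG30441, had 4.36, 3.9996 and 4.30.

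Other genes of the repressor complexes and of cell types were examined against EGFP KD in edgeR from 15 lists, on which grk was the only member of the set. The rule had set aside other listed genes by name, among them vas, aub, AGO3, bgcn, exu, png, CG32088 and RpS5b. The small overlap was thus fixed in part by the selection. Of 17 LINT and dREAM genes, 1 was lower in each knockdown, the RNAi target itself. In edgeR 0 were higher, with 1, 2 and 2 higher at an unadjusted p under 0.05 in L(3)mbt KD, Lint-1 KD and Lint-O KD, and 1, 0 and 0 higher in DESeq2. Of 13 tested germline markers, 8 were higher in each of the 3 knockdowns. The summed level of that list, most of it piwi, which these somatic cells express, was 608 to 733 CPM in EGFP KD, 762 to 1029 in L(3)mbt KD, 712 to 845 in Lint-1 KD and 613 to 855 in Lint-O KD. The part of these germline genes in the levels of the members was not tested. The germline gene vas, for scale, had 1.496 and 1.23 CPM in the controls, 129 and 123 in L(3)mbt KD, 12.4 and 12.8 in Lint-1 KD, and 51.6 and 73.1 in Lint-O KD.

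Over all tested genes 9.58%, 8.41% and 5.20% were called higher in L(3)mbt KD, Lint-1 KD and Lint-O KD, the background for the counts that follow. The lists are small, and their counts were not compared with each other. Of 16 tested germline and maternal genes, 8, 8 and 7 were called higher in the 3 knockdowns in that order. In the same order, the counts were 3, 3 and 3 of 7 testis genes, with 7 further testis genes listed at 0 in all libraries, and 4, 5 and 4 of 18 meiosis genes, with 1 lower in L(3)mbt KD. For ribosomal protein paralogs they were 2, 3 and 2 of 16, for heat shock genes 6, 6 and 1 of 9, and for p53 and apoptosis genes 2, 2 and 1 of 7. Among markers of somatic cell types and somatic piRNA factors, those called higher in L(3)mbt KD were 2 of 14 follicle cell, 1 of 5 hemocyte, 2 of 8 muscle, 1 of 5 neuronal and 1 of 5 neural progenitor markers, and 1 of 18 somatic piRNA factors. In Lint-1 KD 1 follicle cell, 1 hemocyte, 1 muscle and 1 neural progenitor marker were called higher. No neuronal marker or somatic piRNA factor was called in Lint-1 KD by edgeR, which had 1 and 2 higher at an unadjusted p under 0.05, and DESeq2 called 1 and 0. Muscle had 1 marker lower in each of L(3)mbt KD and Lint-1 KD. In Lint-O KD edgeR called 0 markers of these lists, and at an unadjusted p under 0.05 it had 1 follicle cell, 2 hemocyte, 1 muscle and 1 neuronal marker and 1 somatic piRNA factor higher; DESeq2 called 1 neuronal marker. The 1 tested fat body marker was called in no knockdown by edgeR and in Lint-O KD by DESeq2, with an unadjusted edgeR p under 0.05 in L(3)mbt KD and Lint-O KD, and the list summed to 0.908 to 5.22 CPM over the libraries. The hemocyte markers summed to 458 to 501 CPM in EGFP KD, 581 to 653 in L(3)mbt KD, 618 to 708 in Lint-1 KD and 478 to 524 in Lint-O KD. Most of that sum came from Cg25C and vkg, each at 201 to 220 CPM in EGFP KD. He was listed at 0 in all libraries, and Hml, NimC1, eater and Sr-CI stood at 0 to 0.191 CPM. The part of these lists in the values of the members was not tested.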

How the data were processed

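RNA-seq of OSCs was analysed in 8 libraries, 2 for each of 4 RNAi groups. The authors deposited raw read counts per gene. Per the labels' protocols, polyadenylated RNA went into stranded libraries. The submitters' processing notes name HISAT2, HTSeq, edgeR and the build dm6; no source used here gives their roles, versions or the strand setting. Reads without a gene, 16.1% to 19.6% of the table's reads per library, stayed out of library sizes and tests. The 6 ChIP and input samples were not analysed here.

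CPM was the count over the column sum of genes. Tests used edgeR 4.0.16 in R 4.3.3 (filterByExpr, TMM factors of 0.948 to 1.06, quasi-likelihood fit of all 8 libraries by group, Benjamini-Hochberg over 8244 genes). The biological coefficient of variation was 15.4%. DESeq2 1.42.0 was an alternative, beside other scalings, filters, sample sets, a replicate block, left-out libraries and other selection thresholds. On simulated counts of the contrast between L(3)mbt KD and Lint-1 KD over 8104 genes, edgeR recovered 72 of 100 genes set to a 2-fold change, 94 of 100 set to 4-fold, and made 6 false calls. The changed genes were drawn from all tested genes, with the same spread for every gene. These rates therefore do not give the recovery for the weakly expressed members. Names and positions came from RefSeq's dm6 gene table, in which 105 members matched by current symbol and 25 by synonym.

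The members and the lists were chosen with earlier results of these data known. Genes named are the 10 with the highest lowest-library fold, members called between knockdowns, members on a list, members within 5000 bases of each other, the 5 on either side of the threshold, and members with a known role. The library-size range above limits the counting precision, and reads carry no molecular identifiers. Spread between libraries exceeded counting noise, with chi-square per degree of freedom of 22.1 to 52.9 between replicates. The source of that spread was not tested.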

Additional observations from a re-analysis of the deposited data

How the results depend on the processing

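Membership depended on the thresholds: 87 genes met a minimum of 2 CPM, 64 a 3-fold rule and 225 a 1.5-fold rule, against 131, while TMM-scaled CPM gave 125, of which 123 were shared. Leaving out libraries gave 131 to 154, where dropping a knockdown library can only keep or raise the number. The counts called against EGFP KD stayed within 1.5 times under every alternative run. Since the selection used these contrasts, nothing follows from that stability. Between L(3)mbt KD and Lint-1 KD, DESeq2's test called 8 members and no low-count filter 8, against 0 in edgeR, and left-out libraries gave 0 to 3. Between L(3)mbt KD and Lint-O KD (5), DESeq2 called 17, no filter 18, only the 4 libraries compared 3, an adjusted p under 0.01 0, and left-out libraries 0 to 9. Between Lint-1 KD and Lint-O KD (8), the same alternatives gave 18, 19, 22, 2 and 0 to 14. With the replicate block these 2 pairs had 0 and 2 calls. Same-numbered libraries did not deviate together in every pair of groups, with correlations of -0.379 to 0.354, so the numbers were not taken as pairs. Swapping the numbers of L(3)mbt KD and Lint-1 KD in the block, an alternative chosen after seeing the data, gave 35 and 49. Of 121 alternatives to the 11 named log2 differences, 65 kept direction and call, 56 kept direction only and 0 reversed. That tally did not hold every alternative given above. It left out the fit of only the 4 libraries compared, which called 3 members against 5 between L(3)mbt KD and Lint-O KD. The cause of these shifts was not tested. The differences given above for fs(1)N and GNBP3 were not among the 11, which held the largest differences of each pair. The planned share of promoters holding a motif was not run, since promoter sequences were not used here.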

Other observations

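The mirror of the selection, all 6 knockdown libraries at or under 0.5 times the control mean, held for 4 expressed genes: CG14608 (thw), CG9521, mthl10 and mthl9. CG9521, of the GMC oxidoreductase family, had 417 and 359 CPM in the controls, 142 and 173 in L(3)mbt KD, 174 and 134 in Lint-1 KD, and 120.5 and 109 in Lint-O KD. The methuselah-like receptor genes mthl9 and mthl10 lie side by side on 3L. The mthl9 level was 97.3 and 103 CPM in the controls, 16.0 and 18.1 in L(3)mbt KD, 48.1 and 44.7 in Lint-1 KD, and 43.3 and 49.8 in Lint-O KD, lowest in L(3)mbt KD. The mthl10 level was 5.07 and 5.74 CPM in the controls and 0.507 to 2.67 CPM in the knockdowns. These genes were selected on their values, and no test is given.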
